A study of Mus musculus with 6 samples.

Results

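Immediate early genes were followed across 6 single-nucleus RNA libraries from photothrombotic (PT) lesions of the mouse cortex. The set held 10 genes of the 32285 in the deposited matrices, chosen by name: Fos, Fosb, Jun, Junb, Egr1, Egr3, Atf3, Btg2, Nr4a1 and Ier2. All 10 were detected, with between 731 unique molecular identifiers (UMIs, each a tagged RNA molecule) for Fosb and 11058 for Atf3 over the 6 libraries. Lesions were taken 7 or 21 days after the injury (dpi) from wild-type mice labelled as untreated (Ctrl), from wild-type mice given ADWA11, an antibody that blocks the integrin αvβ8 and so the release of active TGFβ, and from Col1a2(creER); Tgfbr2(flox) mice (cKO), in which a Cre driven by the Col1a2 promoter removes the TGFβ receptor chain from fibroblasts after tamoxifen. The tissue of a male and a female mouse went into every library, which leaves no replicate libraries in any of the 6 groups and no test between them. The study's methods describe, for its experiments in general, tamoxifen-treated littermates without Cre or with 1 floxed allele as controls of the knockout and an isotype antibody as the control of ADWA11, while the labels give the Ctrl mice as wild-type with no treatment. Which of these controls stood behind the Ctrl libraries was not given, and an age was given as a range for the study as a whole and not per library.

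Immediate early genes are transcribed within minutes of a stimulus from factors already present in the cell, without new protein synthesis. Most of them encode transcription factors: Fos, Fosb, Jun and Junb are subunits of the AP-1 dimer, Egr1 and Egr3 are zinc-finger factors, Atf3 is a stress-induced member of the ATF/CREB family and Nr4a1 is an orphan nuclear receptor. Btg2 encodes an antiproliferative protein and Ier2 a nuclear protein of the early response. In the brain they are best known as markers of recent neuronal firing, but glia and immune cells switch them on after injury and while tissue is being dissected, so RNA from them records both the lesion and the handling of the sample.

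The proximal promoters are shown first, since they hold the short motifs through which such genes are known to respond to kinases. RefSeq promoters on GRCm38.p6 (250 bases before to 50 after the start) were read for 7 of the 10 genes. Those of Egr1, Egr3 and Ier2 were not among them. The core of the cAMP response element, TGACG on either strand, was present in 6 of these 7 (all but Jun), against 20.8% of 32851 mouse promoters of the same length. The 4 printed here are examples, since Junb and Btg2 carry the microglia-like and T cell-like results below, Fos the astrocyte-like and Nr4a1 the neuron-like ones. They lie on chr12:85473640-85473939 (+) for Fos, chr8:84978699-84978998 (−) for Junb, chr1:134079106-134079405 (−) for Btg2 and chr15:101266596-101266895 (+) for Nr4a1. Capitals mark TGACG, its reverse complement CGTCA, or the full palindrome TGACGTCA, which contains both.
Fos: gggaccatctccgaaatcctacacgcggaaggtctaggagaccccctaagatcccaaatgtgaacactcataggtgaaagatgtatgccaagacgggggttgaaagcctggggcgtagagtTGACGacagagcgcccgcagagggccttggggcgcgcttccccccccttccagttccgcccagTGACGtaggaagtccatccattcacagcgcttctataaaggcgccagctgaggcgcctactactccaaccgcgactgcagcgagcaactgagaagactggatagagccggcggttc
Junb: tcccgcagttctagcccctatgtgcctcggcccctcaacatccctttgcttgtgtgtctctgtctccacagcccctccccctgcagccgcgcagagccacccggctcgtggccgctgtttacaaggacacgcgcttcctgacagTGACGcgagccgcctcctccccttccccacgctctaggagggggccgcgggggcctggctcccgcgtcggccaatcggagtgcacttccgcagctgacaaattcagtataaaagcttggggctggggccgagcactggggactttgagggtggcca
Btg2: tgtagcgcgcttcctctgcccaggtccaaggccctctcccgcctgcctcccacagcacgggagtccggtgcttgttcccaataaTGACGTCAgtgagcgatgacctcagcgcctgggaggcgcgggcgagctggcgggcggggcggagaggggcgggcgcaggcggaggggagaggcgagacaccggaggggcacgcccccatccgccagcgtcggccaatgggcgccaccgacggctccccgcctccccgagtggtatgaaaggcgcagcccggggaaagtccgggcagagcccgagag
Nr4a1: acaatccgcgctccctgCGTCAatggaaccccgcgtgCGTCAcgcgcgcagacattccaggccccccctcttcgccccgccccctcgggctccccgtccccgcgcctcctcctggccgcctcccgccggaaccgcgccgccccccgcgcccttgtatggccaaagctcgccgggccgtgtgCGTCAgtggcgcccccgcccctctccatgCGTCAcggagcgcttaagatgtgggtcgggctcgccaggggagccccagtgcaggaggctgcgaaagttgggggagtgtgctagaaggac
Matches began 129 and 66 bases before the start in Fos, 106 bases before it in Junb and at 4 places in Nr4a1, the farthest 233 bases upstream. The full palindrome was found in Btg2 alone, 166 bases upstream, and in 1.79% of all promoters. The AP-1 motif TGANTCA and the CArG box were in 0 of the 7 windows and in 7.81% and 1.63% of all promoters. These matches describe letters in a 300-base window, and no binding was measured. Motifs farther upstream, and those of Egr1, Egr3 and Ier2, were not looked for, so the absence holds for these windows only. In the GENCODE annotation of GRCm38 the whole genes of the leading members lie at chr8:84974484-84978718 (−) for Junb, chr1:134075170-134079120 (−) for Btg2, chr4:95049034-95052222 (−) for Jun, chr12:85473890-85477273 (+) for Fos and chr1:191170296-191218039 (−) for Atf3. Jun, Junb and Atf3 overlap a gene on the other strand (Junos, Prdx2 and Gm24748).

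The 6 libraries held 61906 nuclei after filtering, 6581 to 13075 each, with a median of 4611 to 8462 UMIs per nucleus. Nuclei were clustered without the 10 genes and named from marker genes, and a name ending in "-like" stands for such a class. In 45 of 47 class-by-library sums the class's own markers had the highest summed level, and the exceptions were the astrocyte-like nuclei of the 7 dpi Ctrl and ADWA11 libraries, where the oligodendrocyte precursor (OPC) list was higher. The library labelled cKO at 7 dpi stood apart: 46.5% of its nuclei and 65.6% of its UMIs were neuron-like, against 0.265% to 14.6% of nuclei elsewhere. A cluster left without a name, with 6 neuron markers raised, held a further 1136 of its nuclei, so 4537 of its 10594 nuclei lay outside the clusters with neuron markers. The 2 mice shared these nuclei unevenly. Of those assigned to a mouse by sex-linked RNA, 739, 1330, 841 and 847 in the neuron-like clusters were female and 238, 156, 47 and 1 male. In the unnamed cluster 18 were female and 825 male, and in the whole library 6325 and 2329. The fibroblast-like share of this library was 3.44%, against 9.50% to 45.7% elsewhere. Over all its deposited barcodes, before filtering, the mitochondrial share of UMIs was 0.157%, against 0.503% to 0.997%. Tgfbr2 in fibroblast-like nuclei was 334 and 244 CPM (counts scaled to a fixed library total) in Ctrl and 252 and 200 in cKO at 7 and 21 dpi. Reads over the whole gene do not show whether the floxed exons were lost, so these values did not check the genotype. Between 140 and 217 cell barcodes per library also occurred in another library.

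Levels are given as CPM of non-mitochondrial UMIs summed over nuclei, with exact Poisson 95% intervals, and ratios as log2 with exact 95% intervals. All intervals cover counting error only, not the spread between mice. Most nuclei could be assigned to the female or the male mouse from sex-linked RNA, and for the leading members and ratios both values are given after the pooled one, female first. Nuclei without such a call entered only the pooled value, which can therefore lie outside the pair. A member was counted in a comparison when it had at least 50 UMIs in the 2 libraries together, and called when it differed at least 2-fold. The same rule over all genes gives the background share. Because UMIs are counted as a share of each library or class, fewer cells of a type and less RNA per cell cannot be told apart in the sums over all nuclei.

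Read over whole libraries, most members looked lower in the cKO lesion at 7 dpi. Fos was 14.3 CPM in Ctrl, 10.9 in ADWA11 and 4.56 in cKO at 7 dpi, and 7.80, 8.002 and 13.0 at 21 dpi. Atf3 was 28.1, 36.4 and 8.17 CPM at 7 dpi and 22.5, 40.0 and 12.5 at 21 dpi. Jun was 34.9, 29.3 and 14.0 CPM at 7 dpi and 19.7, 27.0 and 25.5 at 21 dpi. The cKO library at 7 dpi was thus the lowest of the 6 for Fos, Jun and Atf3. Nr4a1 went the other way, with 6.83 CPM in Ctrl, 6.81 in ADWA11 and 23.5 in cKO at 7 dpi, and 7.08, 7.45 and 17.7 at 21 dpi. Both cKO libraries were above every other library for Nr4a1.

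At 7 dpi the direction of these sums differed with and without the clusters carrying neuron markers. Of the Nr4a1 UMIs, 79.4% of those in the 7 dpi cKO library and 67.5% of those in the 21 dpi cKO library were in neuron-like nuclei. Over all nuclei at 7 dpi, 8 of 10 members were lower in cKO than in Ctrl, with a median log2 ratio of −0.85 beside −0.35 for all genes, and 6 of 10 were called where 49.1% of all genes were. With the clusters carrying neuron markers removed from both libraries, all 10 members were higher in cKO and 2 (Junb and Btg2) were called, where 19.7% of all genes were, with a median of 0.44 beside 0.02 for all genes. Fos then read 14.5 CPM in Ctrl and 20.2 in cKO, and Junb 13.2 and 41.6. At 21 dpi, 7 of 10 members were higher in cKO over all nuclei, with a median of 0.37 beside −0.06. Of these, Nr4a1 was the 1 member of 10 that was called, where 21.5% of all genes were. Outside the clusters with neuron markers 7 of 10 were higher at 21 dpi and 2 (Fos and Fosb) were called, where 16.7% of all genes were, with a median of 0.57 beside 0.07. The levels are therefore given by class of nuclei in what follows.

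The 10 genes were not all highest in the same class of nuclei. Only the named classes with at least 50 nuclei in a library were ranked. A small unnamed cluster with neutrophil and T cell markers, described further below, exceeded them for several genes. Among these was Fos at 21 dpi, at 110 CPM in ADWA11 and 106 in cKO. Atf3 was highest in myeloid-like nuclei (macrophages and microglia) in 6 of 6 libraries, with a median over libraries of 72.7 CPM and at most 10.2 in the median of any other class. Jun was highest in myeloid-like nuclei in 5 of 6 libraries, with a median of 43.5 CPM and 8.5 in neuron-like nuclei. Fosb, the scarcest member, was highest there in 4 of 6, with a median of 3.5 CPM.

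Fos was highest in astrocyte-like nuclei in 5 of 6 libraries, with 72.2 CPM (95% interval 58.1 to 88.6) in Ctrl, 44.4 (36.4 to 53.6) in ADWA11 and 17.7 (12.6 to 24.1) in cKO at 7 dpi. At 21 dpi the astrocyte-like values were 27.1 (23.6 to 31.1), 13.7 (9.71 to 18.8) and 30.8 (26.9 to 35.0). The intervals of the 3 libraries at 7 dpi did not overlap, and those of Ctrl and cKO at 21 dpi did. Between cKO and Ctrl at 7 dpi, 3 members were counted in this class, 1 called higher and 1 lower. Of 8527 genes, 756 were called higher and 600 lower there, and the member median was −0.02. Summed astrocyte markers in these nuclei were 3509, 3793 and 11988 CPM in Ctrl, ADWA11 and cKO at 7 dpi. The OPC markers were 5068, 4176 and 939 CPM in the same order. Their part in the Fos values was not tested. The mice stood close together at 7 dpi, with 74.3 and 72.6 CPM in the female and male Ctrl mouse, 47.1 and 38.9 in ADWA11, and 20.9 and 20.1 in cKO. Only 173, 253 and 370 nuclei lay behind these 7 dpi values, and the marker exception given above touches the first 2 of the 3 libraries. In neuron-like nuclei, where Fos is the usual marker of firing, it was 0 to 3.67 CPM, and in T cell-like nuclei 0 to 5.68.

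Among the named classes, T cell-like nuclei held the highest Junb, Btg2 and Ier2 in all 5 libraries with at least 50 such nuclei. The unnamed cluster was higher still in Junb, at 130 and 152 CPM in Ctrl and ADWA11 at 7 dpi. At 21 dpi its Junb was 135, 326 and 549 in Ctrl, ADWA11 and cKO. It was also higher in Ier2 in these 5 libraries (48.6 to 120 CPM), and in Btg2 in all but 7 dpi Ctrl (70.2 CPM). Junb in the T cell-like nuclei was 123 CPM in Ctrl and 96.7 in ADWA11 at 7 dpi, and 63.6, 38.0 and 95.4 in Ctrl, ADWA11 and cKO at 21 dpi. At 21 dpi in ADWA11 the myeloid-like value, 36.0, lay within the interval of the T cell-like one (31.9 to 44.8). Btg2 was 76.2 to 112 CPM and Ier2 18.6 to 46.9 CPM in the same nuclei, while their Fos was 0 to 5.68 CPM. Junb and Btg2 ran together over 47 class-by-library sums, with a Spearman correlation of 0.76 as a description of points that share libraries.

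Egr1 was highest in mural-like or fibroblast-like nuclei in 5 of 6 libraries. Mural-like nuclei (pericytes and smooth muscle) led in 3 of them, with 94.6 CPM in Ctrl and 65.1 in ADWA11 at 7 dpi and 31.0, 41.3 and 9.40 at 21 dpi in Ctrl, ADWA11 and cKO. Those values rested on 66 to 151 nuclei and differed within a library by mouse, as in 7 dpi Ctrl with 188 CPM in the female and 14.0 in the male mouse. Fibroblast-like nuclei had a median of 31.6 CPM. The exception was the 21 dpi cKO library, where Egr1 was 23.3 CPM in neuron-like and 22.2 in myeloid-like nuclei, against 14.5 in fibroblast-like ones. Of all Egr1 UMIs, neuron-like nuclei held 54.7% in the 7 dpi cKO and 35.9% in the 21 dpi cKO library. Nr4a1 was highest in neuron-like nuclei in 4 libraries, at 17.6, 28.5, 24.3 and 40.6 CPM in 7 dpi Ctrl, 7 dpi cKO, 21 dpi Ctrl and 21 dpi cKO. OPC-like nuclei had a median of 16.05 CPM and, at 17.3 in 7 dpi Ctrl, lay level with the neuron-like ones there. In 21 dpi ADWA11 the mural-like (25.3 CPM) and endothelial-like (23.4) values of Nr4a1 were above the neuron-like one (18.6), and in 7 dpi ADWA11 the OPC-like value led at 23.5. Egr3 had medians of 7.4, 6.7 and 5.6 CPM in T cell-like, fibroblast-like and neuron-like nuclei, and the ranges of these classes over libraries overlapped.

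**Figure D1:**
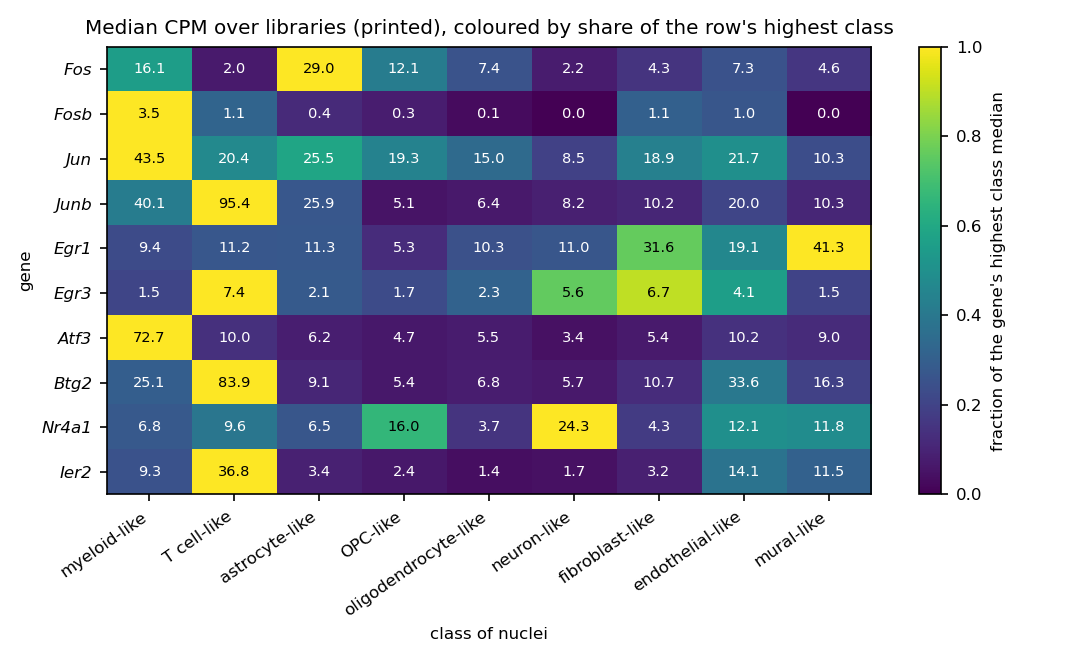
Median CPM over libraries of each gene (rows) in the 9 named classes of nuclei (columns), printed in the cells and coloured as a fraction of the row's highest class. Unnamed clusters are not drawn. Atf3, Jun and Fosb are highest in the myeloid-like column, Junb, Btg2 and Ier2 in the T cell-like column, Fos in the astrocyte-like, Nr4a1 in the neuron-like and Egr1 in the mural-like column.

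Neuron-like nuclei carried little of Atf3, a gene that injured neurons are known to switch on, with 1 exception. Neuron-like Atf3 was 33.1 CPM (22.3 to 47.2) in 7 dpi Ctrl, 2.51 (2.17 to 2.88) in 7 dpi cKO and 1.08 to 3.89 in the libraries at 21 dpi. The 30 UMIs behind the Ctrl value were all in 79 nuclei of a single neuronal cluster, at 75.0 CPM (181 in 24 female and 41.4 in 27 male nuclei), where the same cluster had 8.72 in 7 dpi cKO and 3.69 to 4.83 at 21 dpi. The Ctrl library at 7 dpi held 124 neuron-like nuclei in all and the cKO library 4921, spread over different clusters. A difference between these neurons and a difference in the tissue taken cannot be told apart.

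In myeloid-like nuclei of the 7 dpi cKO library every counted member was higher than in Ctrl, led by Junb and Btg2. Junb was 17.6 CPM in Ctrl, 25.3 in ADWA11 and 80.4 in cKO at 7 dpi, a log2 ratio of cKO over Ctrl of 2.19 (2.02 to 2.36), with 1.97 in the female and 2.15 in the male mice. Btg2 was 13.4, 12.9 and 59.2 CPM in the same order, a ratio of 2.14 (1.94 to 2.34), with 2.18 and 1.61 by mouse. Egr1 was 9.77, 5.40 and 26.1 CPM, a ratio of 1.42 (1.16 to 1.68) with 1.52 and 0.74 by mouse, and Ier2 4.65, 4.01 and 11.3 CPM, a ratio of 1.28 (0.88 to 1.67) with 0.70 and 1.82 by mouse. In each of the 4 genes the ADWA11 library lay nearer to Ctrl than to cKO. Fos followed at 17.6, 14.5 and 33.3 CPM, and Jun at 47.3, 38.7 and 78.7, both short of 2-fold. In all, 9 of 9 counted members were higher and 4 called, where 13.1% of genes were called, and the median log2 ratio was 0.92 beside 0.05 for all genes. Markers of other cells in the myeloid-like nuclei moved with these values: summed neuron markers were 38.1 CPM in Ctrl and 596 in cKO at 7 dpi and 54.3 and 210 at 21 dpi, and summed fibroblast markers 602 and 46.7, then 964 and 61.6. Astrocyte markers were 110.7 and 223 CPM, then 170.3 and 258, OPC markers 73.3 and 179, then 34.8 and 49.2, and oligodendrocyte markers 124.04 and 181.5, then 140.8 and 262, so these 3 lists were higher in cKO at both times. Their part in the results was not tested. The part of the tissue taken, described with the microglia-like nuclei below, was not tested either.

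At 21 dpi the myeloid-like picture was mixed. Egr1 was 8.99 CPM in Ctrl, 8.67 in ADWA11 and 22.2 in cKO, a ratio of 1.30 (0.9997 to 1.61) with 0.90 and 1.40 by mouse, and Fos 9.40, 10.5 and 20.8, a ratio of 1.14 (0.84 to 1.45) with 1.68 and 0.78 by mouse. Atf3 was 79.4, 76.9 and 39.6 CPM, a ratio of cKO over Ctrl of −1.002 (−1.15 to −0.85), with 29.8 and 49.5 in the female and male cKO mouse and 74.4 and 94.3 in the Ctrl mice. Egr3 was lower as well, from 2.95 to 1.39 CPM. Thus 4 of 10 members were called, 2 in each direction, where 8.41% of genes were called, and the median was 0.50 beside 0.02. Junb was 44.3, 36.0 and 69.4 CPM at 21 dpi, a ratio of 0.65, so its Ctrl level was already well above that of 7 dpi.

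With ADWA11, no member of the myeloid-like class as a whole was called against Ctrl. Of 10 members, 0 were called at 7 dpi, where 10.4% of genes were, or at 21 dpi, where 13.0% were, with medians of −0.29 and −0.06 beside 0.03 and −0.06 for all genes. Outside the microglia-like cluster, nearly empty in ADWA11, 1 of 10 was called at 7 dpi, lower, with a median of −0.30. Of 14753 genes, 780 were called higher and 653 lower there. At 21 dpi 0 of 10 were called, where 517 of 14385 genes were called higher and 1235 lower, with a median of −0.12. The cKO and ADWA11 comparisons at a time point share the Ctrl library, so their ratios are not independent. The myeloid-like class was also made up differently: a Spp1- and Plau-rich macrophage cluster held 49.4% of it in 7 dpi Ctrl and 52.7% in 21 dpi Ctrl, the microglia-like cluster 52.2% in 7 dpi cKO, and another cluster 78.6% in 21 dpi ADWA11. Single clusters differed from the class as a whole. At 7 dpi, in a Fabp4- and Cd5l-rich cluster (1102 nuclei in ADWA11, 178 in Ctrl) 5 of 6 counted members were higher with ADWA11 and 3 called, where 7.27% of genes were called, with a median of 0.90 beside 0.03. These were Fos (17.2 CPM with ADWA11, 5.42 in Ctrl), Junb (29.5 and 9.94) and Btg2 (15.7 and 7.23). All 10 members together had 128 UMIs (116 CPM) in those 178 Ctrl nuclei, so the Ctrl values there rested on few molecules. In the Spp1- and Plau-rich cluster 7 of 9 were higher and 1 called (Junb, 36.05 CPM with ADWA11 and 12.8 in Ctrl), where 8.79% of genes were, with a median of 0.40. In a Cd163- and Mrc1-rich cluster, which held 38.8% of the class with ADWA11 and 7.17% in Ctrl, 2 of 6 were higher, 4 lower and 1 called (Fos, 7.99 CPM with ADWA11 and 17.4 in Ctrl), where 10.2% of genes were, with a median of −0.37. At 21 dpi the Fabp4- and Cd5l-rich cluster (4949 and 495 nuclei) had 0 of 9 called, where 8.41% of genes were, with a median of 0.16. The Spp1- and Plau-rich cluster, with 173 nuclei in ADWA11, had 3 of 8 called, where 13.0% of genes were, with a median of 0.46: Fos was higher (19.9 CPM with ADWA11, 7.37 in Ctrl), and Egr1 (1.66 and 9.69) and Ier2 (3.32 and 11.3) were lower. The 10 members together had 176 UMIs (292 CPM) in those ADWA11 nuclei, so the Egr1 and Ier2 values there rested on very few molecules. The Cd163- and Mrc1-rich cluster had 1 of 3 called at 21 dpi, where 3.93% of genes were, which was Jun (9.75 and 30.4 CPM). Between the Ctrl libraries, 21 over 7 dpi, 4 of 10 members were called where 11.0% of genes were. Junb (1.33), Egr3 (1.44) and Ier2 (1.33) were higher and Fosb (−1.68) lower at 21 dpi, with a median of 0.34 beside 0.07. That median was 0.0085 in the female and 0.70 in the male mice.

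**Figure D2:**
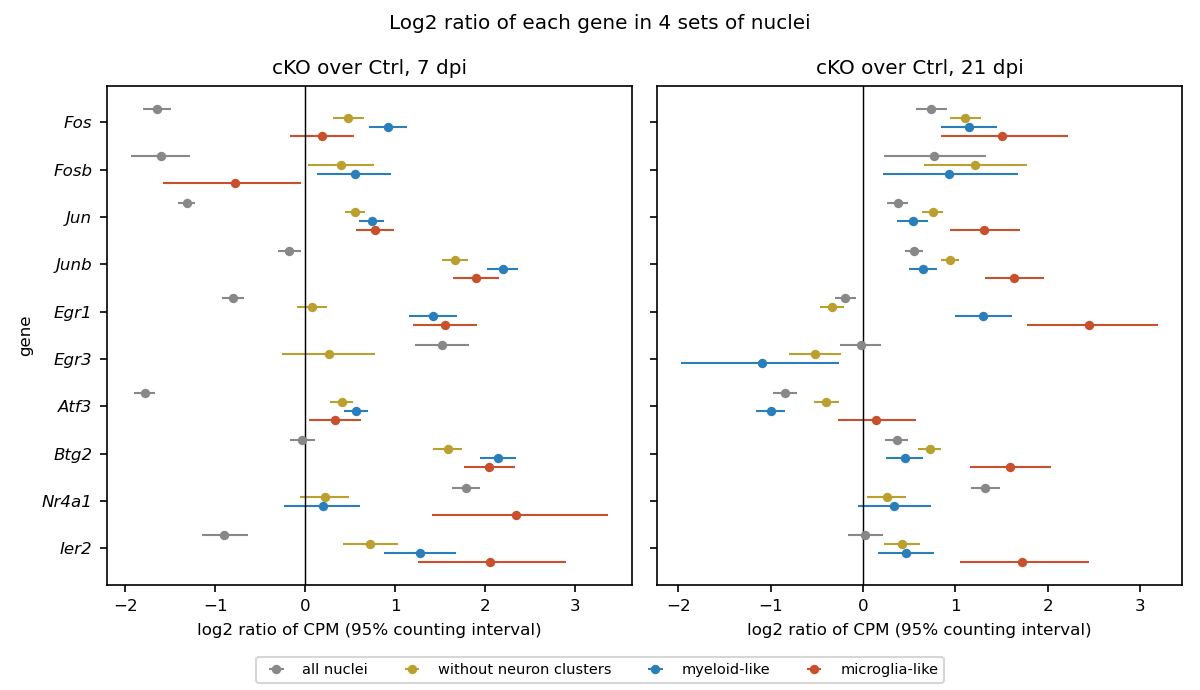
Log2 ratio of CPM, cKO over Ctrl, for each gene at 7 dpi (left) and 21 dpi (right) in all nuclei, in nuclei outside the clusters with neuron markers, in myeloid-like and in microglia-like nuclei, with 95% counting intervals as bars. Ratios of genes under 50 UMIs in the 2 libraries are not drawn. At 7 dpi the points of all nuclei lie below 0 for 8 of 10 genes and those without neuron clusters above 0 for all 10.

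In microglia-like nuclei, the resident macrophages of the brain, most counted members were higher in cKO than in Ctrl. The part of the tissue taken in this difference was not tested. These nuclei formed a single cluster rich in P2ry12 and Sall1, with 1134 nuclei in 7 dpi Ctrl, 1204 in 7 dpi cKO, 439 in 21 dpi Ctrl and 664 in 21 dpi cKO. The ADWA11 libraries held 17 and 1 and were not compared. Junb was 29.1 CPM (25.1 to 33.6) in Ctrl and 108 (98.4 to 119) in cKO at 7 dpi, and 47.4 (38.5 to 57.8) and 147 (134 to 161) at 21 dpi. By mouse, Junb was 33.7 and 33.2 CPM in the female and male Ctrl mouse and 108 and 114 in the cKO mice at 7 dpi, and 51.6 and 44.1 against 139 and 150 at 21 dpi. Each of the 4 cKO mice was above each of the 4 Ctrl mice.

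Btg2 was 22.6 CPM (19.1 to 26.6) in Ctrl and 92.9 (83.7 to 103) in cKO at 7 dpi, and 26.1 (19.6 to 34.1) and 78.6 (69.4 to 88.6) at 21 dpi. Egr1 was 16.2 (13.2 to 19.6) and 47.4 (40.9 to 54.7) at 7 dpi, and 9.67 (5.91 to 14.9) and 52.8 (45.3 to 61.1) at 21 dpi. Nr4a1 was 2.03 (1.08 to 3.46) and 10.2 (7.34 to 13.9) at 7 dpi, and 3.87 (1.67 to 7.62) and 7.71 (5.04 to 11.3) at 21 dpi. In these 3 genes too the lowest cKO mouse lay above the highest Ctrl mouse: 72.8 against 33.1 CPM for Btg2, 33.6 against 22.4 for Egr1 and 7.69 against 3.15 for Nr4a1. Such separation of 4 cKO from 4 Ctrl mice was found for 4 of 9 counted members and for 8.06% of 11876 genes. Nr4a1 was among these members, but in the comparison at 21 dpi alone it fell short of the UMI minimum for a counted member. Its values by mouse at that time rested on few molecules. The mice of a library were processed together, so they are not separate samples of a group.

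Jun and Ier2 were higher in cKO as pooled values but overlapped between mice. Jun was 54.1 and 92.4 CPM at 7 dpi and 36.3 and 90.2 at 21 dpi, with the female and male cKO mouse at 119 and 55.0 and then at 58.8 and 108. Ier2 was 2.96 and 12.2 CPM at 7 dpi and 10.6 and 35.0 at 21 dpi, and the lowest cKO mouse (11.6) was level with the highest Ctrl mouse (11.7). Fos was close in the 2 groups at the earlier time and apart at the later, with 25.9 and 29.5 CPM at 7 dpi, a ratio of 0.19 (−0.17 to 0.54), and 11.1 and 31.4 at 21 dpi, a ratio of 1.499 (0.84 to 2.22). Whether the Fos ratios differ between the times was not tested.

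Atf3 and Fosb did not follow Junb and Btg2 in these nuclei. Atf3 was 36.3 and 45.7 CPM at 7 dpi and 36.8 and 40.6 at 21 dpi, with ratios of 0.33 (0.04 to 0.62) and 0.14 (−0.27 to 0.57). Fosb was 9.04 and 5.24 CPM at 7 dpi and 1.93 and 2.97 at 21 dpi, and Egr3 had 7 UMIs or fewer in every library. At 7 dpi, 5 of 9 counted members were called, all higher, where 9.98% of genes were called, with a median of 1.55 beside 0.06. At 21 dpi, 6 of 7 were called, all higher, where 3.80% of genes were called, with a median of 1.59 beside 0.02.

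**Figure D3:**
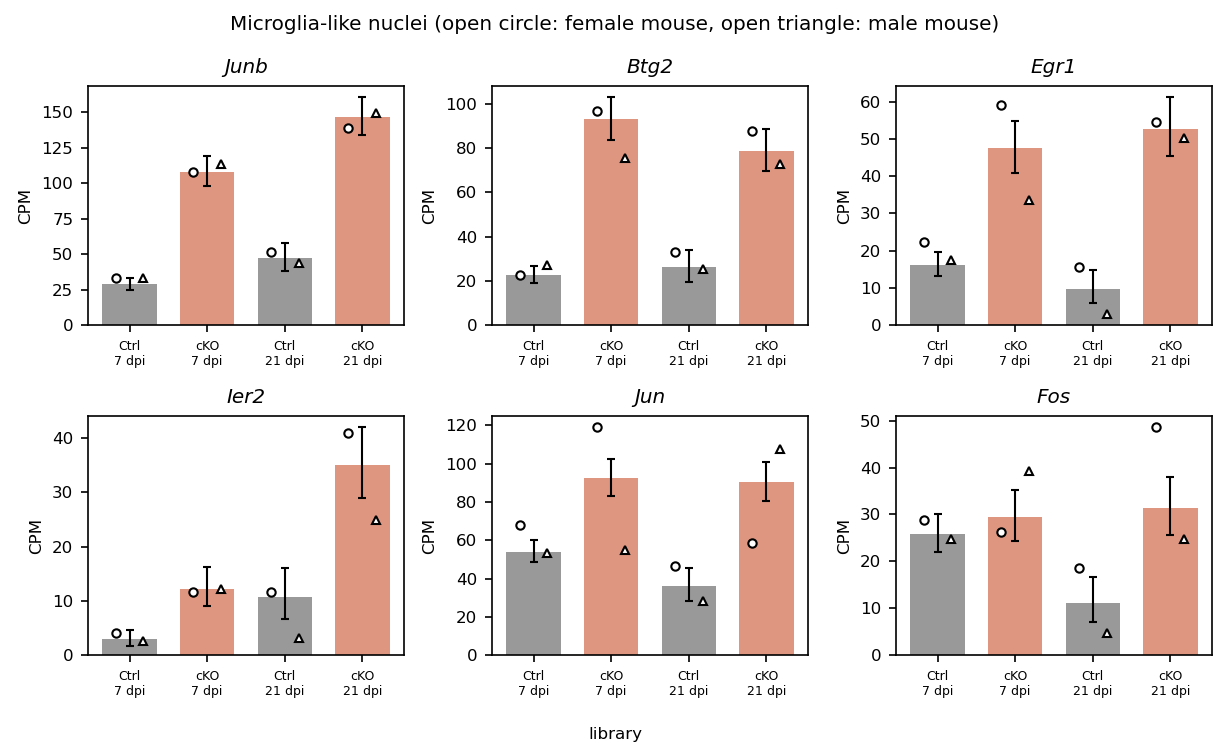
CPM of 6 genes in microglia-like nuclei of the Ctrl (grey) and cKO (red) libraries at 7 and 21 dpi, with 95% counting intervals as bars, the female mouse as an open circle and the male mouse as an open triangle. For Junb, Btg2 and Egr1 all 4 cKO mice lie above all 4 Ctrl mice, and for Jun and Fos the mice overlap.

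For Junb the higher levels came with more nuclei holding a UMI. After each nucleus was thinned to 1000 UMIs, Junb was found in 1.96% (Clopper-Pearson 95% interval 1.24 to 2.96) of microglia-like nuclei in Ctrl and 9.38% (7.77 to 11.2) in cKO at 7 dpi. At 21 dpi the shares were 4.82% (3.01 to 7.27) and 11.99% (9.61 to 14.7). Without thinning they were 9.96% and 19.02% at 7 dpi and 15.3% and 30.7% at 21 dpi. Neuron-like nuclei of the 7 dpi cKO library, where Junb was 4.66 CPM, had a thinned share of 0.717% at a median of 15058 UMIs per nucleus, and the microglia-like nuclei there had a median of 2950. The 5 richest microglia-like nuclei held 8.07% of the Junb UMIs of that library and 14.4% of those of 7 dpi Ctrl. Between 3 and 31 microglia-like nuclei per library had fewer than 1000 UMIs and were left out.

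Several members were also found together in the same nucleus. UMIs of at least 2 of the 10 genes, after thinning, were in 2.59% (1.74 to 3.70) of microglia-like nuclei in Ctrl and 8.27% (6.76 to 9.99) in cKO at 7 dpi, and in 1.83% (0.80 to 3.58) and 8.95% (6.89 to 11.4) at 21 dpi. In all myeloid-like nuclei the shares were 1.74%, 1.89% and 6.83% in Ctrl, ADWA11 and cKO at 7 dpi, and 2.30%, 2.06% and 4.22% at 21 dpi. Fibroblast-like nuclei, for comparison, lay between 0.75% and 1.69% in the 6 libraries. At least 1 member was present in 13.6% and 25.1% of microglia-like nuclei at 7 dpi and in 13.5% and 26.4% at 21 dpi.

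**Figure D4:**
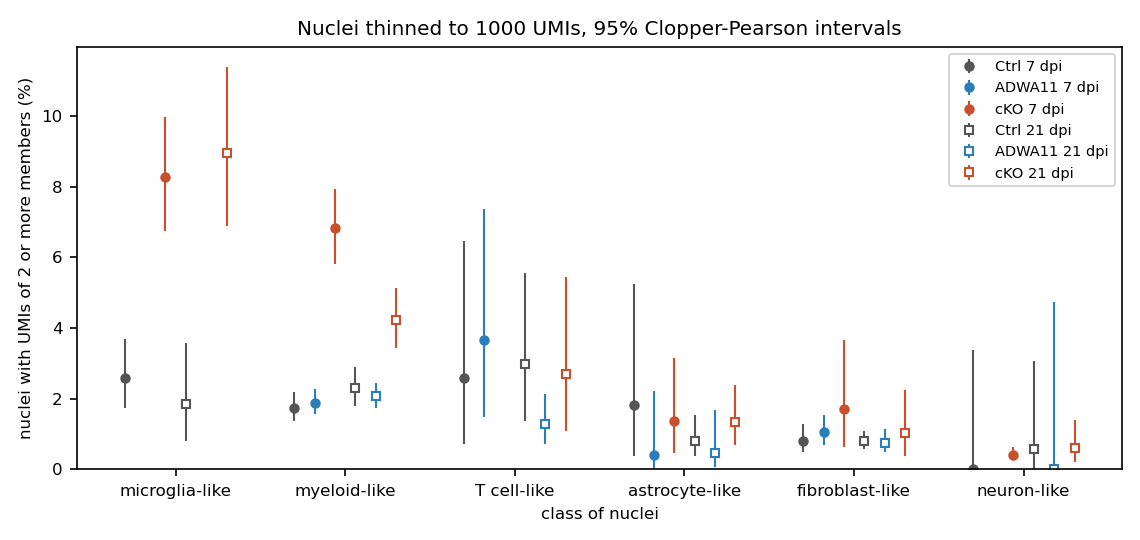
Percent of nuclei with UMIs of 2 or more of the 10 genes after thinning to 1000 UMIs, by class and library, with 95% Clopper-Pearson intervals (filled circles, 7 dpi, open squares, 21 dpi). The microglia-like and myeloid-like points of the cKO libraries, from 4.22% to 8.95%, lie above those of the Ctrl and ADWA11 libraries, from 1.74% to 2.59%.

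Other properties of the microglia-like nuclei moved with these values. The summed neuron markers in them were 44.4 CPM in Ctrl and 671 in cKO at 7 dpi, and 49.8 and 232 at 21 dpi. The part of this neuronal RNA in the results was not tested. The make-up of the libraries differed too. Neuron-like nuclei were 1.495% of the Ctrl and 46.5% of the cKO library at 7 dpi, and 1.87% and 14.6% at 21 dpi. Oligodendrocyte-like nuclei were 0.567% and 7.92%, then 1.15% and 10.5%. A neuron-like cluster rich in Drd2 and Rgs9 held 979 nuclei in 7 dpi cKO, 40 in 21 dpi cKO and 0 in both Ctrl libraries. Whether the tissue taken, rather than the genotype, lay behind the higher members was not tested. In the 7 dpi cKO library, neuron-like and microglia-like nuclei held 4.66 and 108 CPM of Junb, 5.71 and 92.9 of Btg2, 8.90 and 47.4 of Egr1, 1.24 and 12.2 of Ier2, and 28.5 and 10.2 of Nr4a1. Astrocyte markers summed to 282 and 386 CPM at 7 dpi and to 334 and 481 at 21 dpi, and oligodendrocyte markers to 105 and 179, then 139 and 276, both higher in cKO. T cell markers, from the named class highest in Junb, summed to 5.24 to 17.9 CPM in the 4 libraries and were lower in cKO than in Ctrl at both times. P2ry12, a receptor of homeostatic microglia, was 448 and 587 CPM at 7 dpi and 499 and 581 at 21 dpi, and Siglech 97.7 and 297, then 81.7 and 208. Median UMIs per nucleus were 5007 and 2950 at 7 dpi and 4397 and 4627 at 21 dpi, and the mitochondrial share was 0.695% and 0.462%, then 0.548% and 0.576%.

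Lists of related genes were read beside the members. Of 34 other rapidly induced genes, 20 were counted in microglia-like nuclei at 7 dpi, and 4 were called higher and 0 lower in cKO, where 9.98% of all genes were called, with a median of 0.35 beside 0.06 for all genes. These were Ier3 (2.65 and 12.5 CPM), Socs3 (4.21 and 16.5), Ier5 (13.6 and 39.7) and Per1 (8.72 and 22.2). Socs3 is a feedback inhibitor of cytokine signalling and Per1 a clock gene that also responds acutely. At 21 dpi, 4 of 19 were called higher and 0 lower, where 3.80% of all genes were called, with a median of 0.45 beside 0.02: Socs3 (6.77 and 29.95 CPM), Per1 (13.1 and 36.8), Dusp1 (5.80 and 12.5), a phosphatase that ends MAP kinase signalling, and Ier3 (10.2 and 20.5). Heat shock genes, which rise when tissue is warm or stressed, had 0 of 10 called at either time. Their medians were 0.40 and −0.10, beside 0.06 and 0.02 for all genes. The largest ratios at 7 dpi were Hsp90ab1 (0.85), Hspe1 (0.83), Hspa5 (0.53) and Hsp90aa1 (0.51), each with an interval above 0. Heat shock genes thus moved with the members at 7 dpi short of 2-fold, and their part in the result was not tested. The kinases and factors upstream of immediate early genes had 0 of 18 called at both times, and other AP-1 partners 1 of 14 (Batf3, 7.79 and 17.2 CPM) at 7 dpi and 0 of 14 at 21 dpi. The other lists had at most 4 genes counted in these nuclei, none called. In the myeloid-like class as a whole, the 4 largest ratios of the other rapidly induced genes, cKO over Ctrl, went both ways. At 7 dpi they were Ccn2 (−2.60), Ier3 (1.92), Ppp1r15a (1.72) and Socs3 (1.71). At 21 dpi they were Ccn2 (−2.01), Egr2 (−1.87), Klf2 (−1.83) and Socs3 (1.72).

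Myeloid-like nuclei outside the microglia-like cluster lay above Ctrl at 7 dpi and level with it at 21 dpi in their median member, a contrast that was not tested. Their Junb was 13.8 CPM in Ctrl and 57.4 in cKO at 7 dpi, a ratio of 2.06 (1.81 to 2.31), Btg2 10.4 and 31.6, a ratio of 1.61 (1.29 to 1.92), and Fos 14.9 and 36.5, a ratio of 1.29 (1.01 to 1.57). The median was 1.01 at 7 dpi and 0.03 at 21 dpi, beside 0.03 and 0.02 for all genes. In the female and male mice it was 0.48 and 1.22 at 7 dpi and −0.22 and 0.04 at 21 dpi. Within the Spp1- and Plau-rich macrophage cluster, Junb was 12.8 CPM in Ctrl, 36.1 in ADWA11 and 60.5 in cKO at 7 dpi, and 49.7, 29.9 and 49.3 at 21 dpi. Atf3 in that cluster was 72.8, 136 and 123 CPM at 7 dpi and 97.6, 131 and 60.4 at 21 dpi, so the cKO value was above Ctrl at 7 dpi and below it at 21 dpi.

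In fibroblast-like nuclei, the cells targeted by the Cre, few members were called. At 7 dpi, 2 of 9 counted members were called in cKO against Ctrl, where 10.1% of genes were, with a median of 0.12 beside 0.07, which was 0.98 in the female and −0.22 in the male mice. Jun was 19.6 CPM (17.6 to 21.7) in Ctrl, 24.5 (22.6 to 26.6) in ADWA11 and 43.3 (35.0 to 53.0) in cKO, a ratio of 1.14 (0.80 to 1.48), higher in both cKO mice at 66.8 and 32.3. Btg2 was 5.02, 5.41 and 11.98 CPM, a ratio of 1.25 (0.57 to 1.90), but 2.75 in the female mice and −0.39 in the male mice. Only 364 fibroblast-like nuclei were kept from that cKO library, and their clusters differed from Ctrl. An Eln- and Col8a1-rich cluster held 32.1% of them and 60.8% in 7 dpi Ctrl. A Lama1-rich cluster held 31.9% and 17.1%, and a Slc47a1-rich one 14.3% and 3.20%. Heat shock genes moved with these values: 3 of 12 were called higher, Hspa1b at 0.38 and 41.0 CPM, Hsph1 at 20.1 and 55.8 and Dnajb1 at 2.91 and 6.91, and their part in the result was not tested.

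Egr1 in fibroblast-like nuclei was lowest in the late cKO lesion. It was 31.1 CPM (28.6 to 33.7) in Ctrl, 45.8 (43.2 to 48.6) in ADWA11 and 32.3 (25.1 to 40.8) in cKO at 7 dpi, and 32.1 (30.2 to 34.1), 22.5 (20.6 to 24.5) and 14.5 (11.4 to 18.1) at 21 dpi. The ratio of cKO over Ctrl at 21 dpi was −1.15 (−1.501 to −0.81), and both cKO mice (13.7 and 13.2 CPM) were below both Ctrl mice (32.5 and 29.8). Ier2 was lower as well, at 5.45 and 2.26 CPM, and so 2 of 9 counted members were called at 21 dpi, where 13.9% of genes were, with a median of −0.07 beside −0.02. The summed fibroblast markers in these nuclei were 7194, 5633 and 2238 CPM in Ctrl, ADWA11 and cKO at 21 dpi and 8380, 6699 and 4595 at 7 dpi, and their part in the result was not tested. The clusters behind these sums differed too. A cluster rich in Slc47a1 and Slc47a2 held 22.6%, 65.4% and 57.6% of the fibroblast-like nuclei in Ctrl, ADWA11 and cKO at 21 dpi and 3.20% in 7 dpi Ctrl, and a cluster rich in Eln and Col8a1 held 33.7%, 10.5% and 1.92% at 21 dpi and 60.8% in 7 dpi Ctrl. Within the Slc47a1-rich cluster Egr1 at 21 dpi was 22.8 CPM (20.1 to 25.8) in Ctrl, 22.98 (20.8 to 25.3) in ADWA11 and 13.7 (10.3 to 17.9) in cKO, so ADWA11 lay level with Ctrl and cKO below both. Within the Eln-rich cluster it was 43.3 (40.1 to 46.7) in Ctrl and 21.98 (16.5 to 28.7) in ADWA11, with 12 nuclei in cKO. In a smaller cluster rich in Lama1 and Slc6a13 the order was the reverse, at 10.2 (5.44 to 17.5), 19.8 (11.6 to 31.7) and 21.3 (12.4 to 34.03), with overlapping intervals. A shallow cluster rich in Mgp and Gpx3, with a median of 1662 UMIs and 24.8% of its nuclei called doublets, held 39.6%, 19.8% and 22.6% of the class at 21 dpi, and its Egr1 was 23.1 (19.3 to 27.5), 21.2 (16.3 to 27.02) and 13.8 (5.07 to 30.1), also with overlapping intervals. Without that cluster the Egr1 ratio of cKO over Ctrl at 21 dpi was −1.22. A cluster rich in Ptgds and Slc13a4, with 4 astrocyte and 3 fibroblast markers raised, was left without a name and lies outside this class. Its Egr1 at 21 dpi was 16.9 CPM (13.4 to 21.2) in Ctrl, 11.1 (7.61 to 15.7) in ADWA11 and 2.84 (1.36 to 5.23) in cKO. It held 683, 402 and 421 nuclei there.

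With ADWA11, 1 member was called at each time in fibroblast-like nuclei. At 7 dpi it was Egr3, with 2.92 CPM in Ctrl and 6.36 in ADWA11, a ratio of 1.13 (0.67 to 1.60) and 1 of 9 counted, where 7.33% of genes were called. At 21 dpi it was Fosb, with 0.33 and 1.75 CPM, a ratio of 2.41 (1.42 to 3.51) on 53 UMIs and 1 of 10, where 6.49% were called. The medians were 0.32 and 0.31 beside 0.07 and 0.00. Between the Ctrl libraries, Egr3 (1.27) and Ier2 (1.10) were called higher at 21 than at 7 dpi, 2 of 9 where 16.5% of genes were called, with a median of 0.35 beside 0.07. Without the shallow cluster this median was 0.11, and that of ADWA11 over Ctrl at 21 dpi was 0.58 over the members counted in the class. Over the 9 members that were counted without that cluster it was 0.545, and 0 of them were called.

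**Figure D5:**
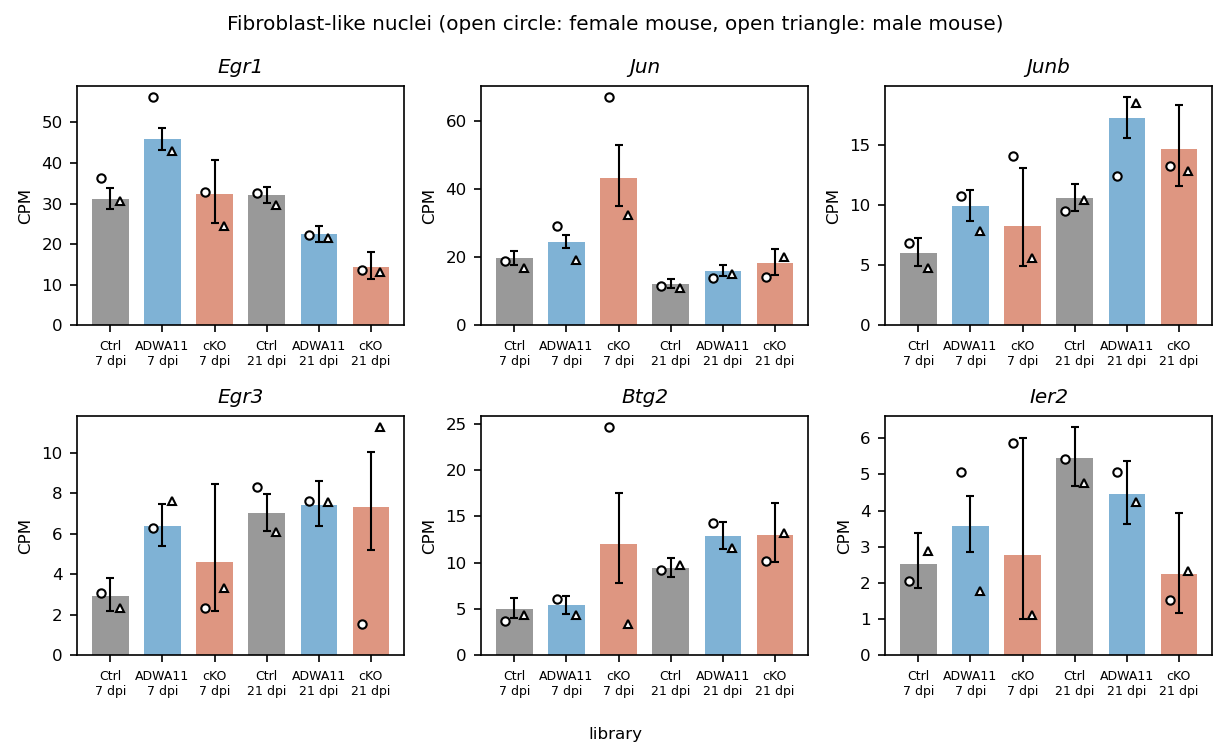
CPM of 6 genes in fibroblast-like nuclei of the 6 libraries (grey, Ctrl, blue, ADWA11, red, cKO), with 95% counting intervals as bars, the female mouse as an open circle and the male mouse as an open triangle. Egr1 at 21 dpi steps from 32.1 CPM in Ctrl to 22.5 in ADWA11 and 14.5 in cKO, and in the 7 dpi cKO library the female and male mouse lie far apart for Jun and Btg2.

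Outside the set, the genes whose summed level over 47 class-by-library sums ran most like that of the 10 members together were B4galt5 (Spearman correlation 0.82), Rhbdd1 (0.81), Gna13 (0.81), Akr1b10 (0.81) and Ptpn1 (0.81), out of 7959 genes with a mean of at least 20 CPM. The points share libraries and cell classes, and the values are given as a description.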

How the data were processed

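The deposited files were 6 sparse matrices of UMI counts per gene and nucleus, made by the authors with Cell Ranger (7.2.0 in the matrix headers, 7.1.0 in the submitters' processing notes) on mm10. Lesion tissue was minced in detergent buffer, and DAPI-positive nuclei were sorted and loaded on Chromium 3′ chips. Nuclei outside the central range of UMIs and genes of their library (2.5 percentiles at each end) or above the upper bound of mitochondrial share were left out, as 1 step modelled on the study's methods. Clustering used Seurat 5.3.0 and sctransform 0.4.2 in R 4.3.3 with 30 components and Louvain at 0.5, with the 10 members and all related lists removed from the variable genes. A cluster was named from at least 3 markers at least 2-fold above the other nuclei and in at least 5% of its nuclei, and the margins for close classes were set after the clusters were seen. Doublets were scored by simulation and kept, and removed as an alternative. The deposited counts were summed per class and library and divided by the non-mitochondrial total (CPM). TMM factors came from edgeR 4.0.16, and all else from Python 3.11.15 with scipy 1.17.1. Interval coverage was tested on simulated data. The members and lists were chosen with earlier results of these data known. All 10 members are named, at most 4 genes of each other list (largest ratio) and the 5 genes most like the members.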

Additional observations from a re-analysis of the deposited data

Results flagged for a closer look

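A few members had ratios of opposite sign at the 2 times in both mice of a library pair, and the difference between the times was not tested. They were picked from all members in myeloid-like and fibroblast-like nuclei, for cKO and for ADWA11 over Ctrl, with intervals beyond 0. How many of all genes meet the same rule was not counted. In myeloid-like nuclei the log2 ratio of Atf3, cKO over Ctrl, was 0.56 at 7 dpi and −1.002 at 21 dpi. In the same class the ratio of Junb, ADWA11 over Ctrl, was 0.52 at 7 dpi and −0.30 at 21 dpi. In fibroblast-like nuclei the ratio of Egr1, ADWA11 over Ctrl, was 0.56 at 7 dpi and −0.51 at 21 dpi. The clusters that made up both classes differed between these libraries, as given in the report.

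A small cluster left without a name, since its nuclei carried neutrophil markers (S100a8, S100a9) together with T cell markers, had its highest levels of Junb, Btg2, Jun, Egr1, Fosb and Egr3 in the 21 dpi cKO library. It held 110 nuclei there and 31 to 73 in the other 5 libraries. Junb was 130, 152 and 184 CPM in Ctrl, ADWA11 and cKO at 7 dpi, and 135, 326 and 549 at 21 dpi. In the same order Btg2 was 70.2, 87.5 and 43.3 CPM, then 159, 220 and 346, Egr1 5.40, 4.61 and 21.6, then 9.34, 66.0 and 129, and Jun 151, 87.5 and 86.6, then 32.7, 83.6 and 213. The Jun value of 21 dpi Ctrl was the lowest of the 6. Fosb and Egr3 rested on 10 and 13 UMIs in 21 dpi cKO, at 21.1 and 27.4 CPM. Fos (106 CPM in 21 dpi cKO, 110.03 in 21 dpi ADWA11) and Ier2 (120.3 in 21 dpi cKO, 119.8 in 7 dpi ADWA11) were level between 2 libraries. Nr4a1 was highest in 21 dpi ADWA11 (48.4 CPM, against 23.2 in 21 dpi cKO). Atf3 was highest in 7 dpi cKO (108 CPM on 10 UMIs, against 88.6 in 21 dpi cKO). In the female and male mouse of 21 dpi cKO (29 and 27 nuclei), Junb was 319.8 and 914 CPM, Btg2 169.9 and 657, Jun 79.96 and 407, Fos 29.98 and 212 and Egr1 165 and 145. The female value of Junb lay level with that of 21 dpi ADWA11, the female value of Btg2 with that of 21 dpi Ctrl, and the female value of Jun lay below the pooled value of every library but 21 dpi Ctrl.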

How the results depend on the processing

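The 10 median log2 ratios of the members came from 5 comparisons in myeloid-like and 5 in fibroblast-like nuclei. Each was recomputed under up to 10 alternatives, 93 values in all, of which 86 kept their sign. In 68 the move was within a yardstick, the difference between the female and male medians divided by the square root of 2. The female-only and male-only medians are among the 93 and were judged against a yardstick made from themselves. A median on which the mice disagree also gets a wider yardstick, so the 68 do not measure stability. The cKO over Ctrl myeloid-like median at 7 dpi (0.92) was 1.55 in the microglia-like cluster alone. At 21 dpi (0.50) it was 0.73 with clustering on log-normalised counts, 0.66 with the members kept among the variable genes, 0.59 as a mean of CPM per nucleus, 1.41 in the microglia-like cluster (over the 10 members counted in the class) and 0.03 without it. The ADWA11 myeloid-like median at 21 dpi (−0.06) was −0.38 in the female mice and −0.22 as a mean per nucleus. In fibroblast-like nuclei the cKO median at 7 dpi (0.12) was 0.98 in the female and −0.22 in the male mice. At 21 dpi (−0.07) it was 0.16 in the male mice, 0.056 without called doublets, −0.21 with the other clustering and −0.33 with members kept. The ADWA11 median was −0.25 as a mean per nucleus at 7 dpi (0.32), and at 21 dpi (0.31) 0.38 in the male mice, 0.026 as a mean per nucleus and 0.58 without the shallow cluster, an alternative chosen after seeing the data. The Ctrl median of 21 over 7 dpi (0.35) was 0.58 and 0.73 in the female and male mice, 0.22 without doublets, 0.69 with the other clustering, 0.83 with members kept, 0.057 as a mean per nucleus, 0.23 with no UMI minimum and 0.11 without the shallow cluster. Of the ratios of single members, called or not, 783 of 881 values kept their sign. Of single members called, 190 of 192 values kept their sign and 163 stayed at least 2-fold. Called ratios were picked for their size in these same nuclei, so the 190 do not measure stability. The called values that changed sign were Atf3 in myeloid-like nuclei, cKO over Ctrl at 21 dpi, at 0.14 in the microglia-like cluster alone, and Btg2 in fibroblast-like nuclei, cKO over Ctrl at 7 dpi, at −0.39 in the male mice. The causes were not tested. No paired analysis was possible because each group was 1 library.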

Other observations

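A cluster within the myeloid-like class with Clec9a and Il1b among its leading genes stood apart for Nr4a1, a receptor known from antigen-stimulated immune cells. Nr4a1 there was 38.1, 32.5 and 44.8 CPM in Ctrl, ADWA11 and cKO at 7 dpi, and 33.6, 29.2 and 4.18 at 21 dpi, where the myeloid-like class as a whole had 4.13 to 8.93. The 21 dpi cKO value rested on 2 UMIs in 152 nuclei (95% interval 0.51 to 15.1 CPM) and lay below the interval of 21 dpi Ctrl (20.5 to 51.9). Btg2 in the same nuclei was 52.5, 72.8 and 128 CPM at 7 dpi and 136, 75.1 and 79.4 at 21 dpi, so it did not share the low 21 dpi cKO value. The cluster held 53 to 596 nuclei per library.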
